A study of Mus musculus with 14 samples.

Results

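Integrins and laminins were examined in *p65*(-/-) mouse embryonic fibroblasts whose p65, the RelA subunit of NF-κB, had been put back or left out. The genes were found by name among all non-control probes of the array: every gene name that starts with *Itga* or *Itgb* and a number, *Itgav*, *Itgal*, *Itgam* and *Itgax*, and every *Lama*, *Lamb* or *Lamc* followed by 1 digit. This gave 40 of the 27962 gene names on the array, namely 25 integrin subunits, 10 laminin chains and 5 proteins that only carry an integrin in their name (*Itgb1bp1*, *Itgb1bp2*, *Itgb1bp3*, *Itgb3bp* and *Itgb4bp*, now called *Eif6*). They had 87 probes, and for each gene the probe with the highest mean signal was used. The name rule misses laminin β1, which the array lists as *Lamb1-1*, and its values are given where they bear on a result. The rule also misses *Itgae* and *Itgbl1*, which are in none of the counts.

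All cells were p65-deficient NIH 3T3 fibroblasts, infected with lentivirus, selected with Blasticidin and kept as pools, and all were starved overnight. Wild type cells carried wild type p65, KTR cells carried p65 with 3 lysines changed to arginine (K310/314/315R), K314/315R cells carried p65 with 2 of these changes, and pTV cells carried the empty vector. These lysines are sites at which p65 can be acetylated, and the study asked which genes need p65 with these sites intact. After 3 h with mouse TNFα (30 ng/ml) there were 3 arrays of wild type, 3 of KTR, 3 of pTV and 2 of K314/315R, and 3 further arrays held RNA of untreated wild type cells (0 h). The pTV cells were measured only with TNFα. The replicates of a group were biological ones whose RNA was isolated on different days.

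Integrins are receptors on the cell surface, each made of 1 α and 1 β chain, that hold the cell to the matrix around it and signal inward. The α chain largely sets the ligand: α3, α6 and α7 bind laminins, α5, α8, αV and αIIb bind proteins with an RGD motif such as fibronectin and vitronectin, α1, α2, α10 and α11 bind collagens, and αL, αM and αX belong to leukocytes. Laminins are the main glycoproteins of basement membranes, each a trimer of 1 α, 1 β and 1 γ chain. In fibroblast cultures, integrins carry cells on fibronectin and collagen, and NF-κB is known for turning on genes of inflammation and adhesion after TNFα.

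Values are log2 signals minus the 75th percentile of the array, so they have no unit. A gene was tested if 1 group or more had its probe well above background on each of its arrays, and called at a Benjamini-Hochberg adjusted p under 0.05 over all tested probes in limma. Of the 40 genes, 27 were tested: 17 of 25 integrins (10 α and 7 β chains), 7 of 10 laminins and 3 of the 5 binding proteins. Among these 27, 22 were well above background on all 14 arrays. The other 5 were *Itga1* on 10 arrays, *Itga11* on 13, *Itgal* on 10, *Itgb2* on 8 and *Lama3* on 9. *Itga11* lacked a value on K314/315R replicate 2, where its spot had an outlier flag, so that group rests on 1 array there.

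The remaining 13 genes were not tested. Of these, 7 were well above background on no array: *Itga4*, *Itga9*, *Itgam*, *Itgb2l*, *Itgb6*, *Itgb1bp2* and *Lama1*. *Itga2*, *Itga10*, *Itgax*, *Itgb1bp3*, *Lamb3* and *Lamc3* were well above background on some arrays but on all arrays of no group. *Lamb3*, a chain of epithelial laminin together with *Lama3*, was well above background in wild type at 3 h on 2 of 3 arrays, in K314/315R on 1 of 2, and on 0 of 3 arrays each in pTV, KTR and wild type at 0 h.

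The RefSeq promoters of these genes (GRCm38.p6, a window that ends just after the start of the gene) are shown for 3 genes to give the DNA next to which the differences described below were measured. Promoters of 25 of the 40 genes, 28 in all, were searched on both strands. The motifs were the κB site consensus, the AP-1 site TGANTCA, the GC box GGGCGG and the TATA box TATAAA. No promoter of the remaining genes was searched, *Itga6*, *Lama3* and *Lama4* among them. Matches are in capitals in the sequences, which run 5′ to 3′ on the gene's strand. *Lama2* (chromosome 10, minus strand, chr10:27616893-27617192) and *Itga8* (chromosome 2, minus strand, chr2:12301895-12302194) are shown because both were lower in cells with p65. *Lamb3* (chromosome 1, plus strand, chr1:193301744-193302043) is shown because it alone among the 25 genes searched held a match to the κB consensus.
*Lama2*: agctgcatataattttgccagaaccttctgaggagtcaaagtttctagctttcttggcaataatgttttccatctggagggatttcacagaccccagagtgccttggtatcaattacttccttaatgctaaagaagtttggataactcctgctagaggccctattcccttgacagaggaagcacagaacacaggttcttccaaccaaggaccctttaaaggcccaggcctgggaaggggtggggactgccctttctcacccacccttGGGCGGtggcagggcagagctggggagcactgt
*Itga8*: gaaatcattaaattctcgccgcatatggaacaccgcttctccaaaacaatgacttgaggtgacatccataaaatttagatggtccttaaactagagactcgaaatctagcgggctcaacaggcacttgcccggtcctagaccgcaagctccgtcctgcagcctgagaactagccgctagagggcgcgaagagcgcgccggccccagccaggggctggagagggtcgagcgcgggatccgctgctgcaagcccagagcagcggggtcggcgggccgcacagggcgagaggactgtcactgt
*Lamb3*: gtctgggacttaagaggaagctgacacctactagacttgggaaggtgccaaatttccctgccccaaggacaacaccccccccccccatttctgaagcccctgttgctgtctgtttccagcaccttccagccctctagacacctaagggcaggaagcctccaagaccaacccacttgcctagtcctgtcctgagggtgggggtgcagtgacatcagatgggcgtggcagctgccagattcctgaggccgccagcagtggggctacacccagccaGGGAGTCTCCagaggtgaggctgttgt
*Lama2* held 1 GC box, *Itga8* none of the 4 motifs, and *Lamb3* 1 κB match. Among the 25 genes, 1 had a κB match, 3 an AP-1 match, 10 a GC box and 0 a TATA box. Of all 32851 promoters, 4.51% had a κB match, 7.81% an AP-1 match, 35.7% a GC box and 13.6% a TATA box. These matches describe the letters in this window only.

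*Rela*, the gene of p65, was well above background on every array, in pTV cells too, with 1.00, 1.19 and 1.34 in pTV, 1.04, 0.97 and 1.03 in untreated and 1.52, 1.52 and 1.54 in treated wild type cells, 1.39, 1.54 and 0.79 in KTR and 1.54 and 1.87 in K314/315R. The difference of wild type over pTV was 0.35 ± 0.17 (SE, log2; adjusted p = 0.21), with no overlap between the arrays. Whether the probe lies in the disrupted part of the gene is not known here, so it does not check the labels. Of the 4 slides, the first 3 each carried 1 array from every group but K314/315R, whose arrays shared slide 4, which was read with a newer version of the software. In all comparisons of K314/315R, slide and cell line cannot be told apart. The share of spots well above background was 49.9% to 57.7% per array, with the lowest share and the most outlier spots, 326, on KTR replicate 3.

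Of 10 fibroblast markers 9 were tested, all but *Fap*, which was well above background on no array. The same was true of 5 of 6 endothelial markers, of 3 of 8 leukocyte markers (*Ptprc*, *Emr1* and *Tyrobp*), of 3 of 7 epithelial markers (*Cdh1*, *Tacstd1* and *Cldn4*) and of 2 of 5 smooth muscle markers (*Myh11* and *Des*). The summed log2 level of the fibroblast list was 9.99 to 10.2 in pTV, against 10.1 to 10.3 in TNFα-treated wild type cells. For the epithelial list it was -1.20 to -0.73 and -1.73 to -0.95, for the leukocyte list -1.33 to -0.33 and -1.49 to -1.42, and for the smooth muscle list 7.45 to 7.89 and 8.05 to 8.35. Single markers moved with p65. In wild type over pTV *Pdgfrb* was higher by 1.99 and *Pdgfra* by 1.77 (log2), and *Thy1* was lower by -1.19. The keratin *Krt18* was well above background on 3 of 3 pTV arrays and 1 of 3 wild type arrays at 3 h. Of 4 tested epithelial markers 2 were called lower in wild type over pTV, and of 3 smooth muscle markers 1 higher and 1 lower. Of 4 tested leukocyte markers 0 were called. The part of these markers in the differences below was not tested. In such pools, fewer cells of a kind and less RNA per cell cannot be told apart.

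**Figure D1:**
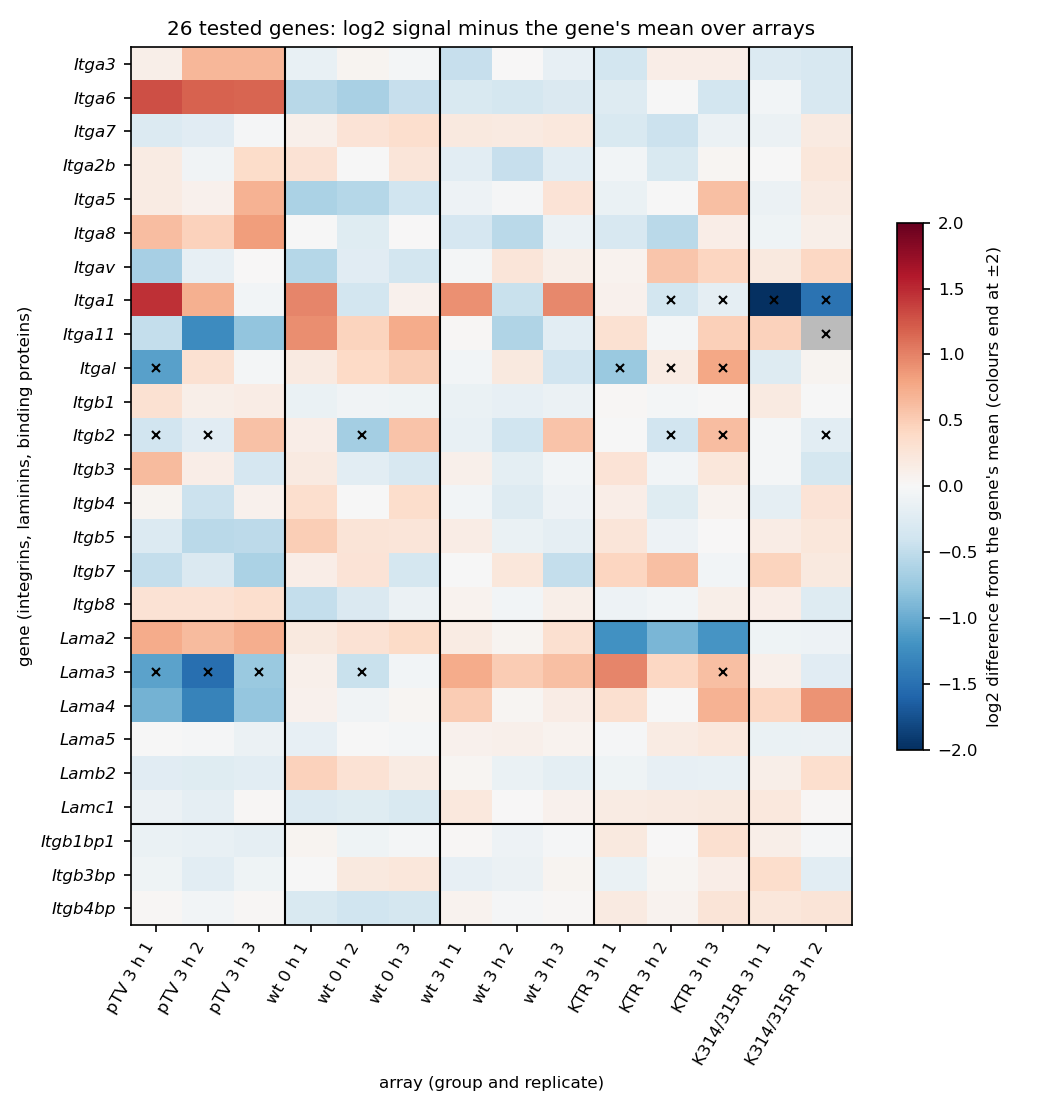
Log2 signal of 26 of the 27 tested genes on the 14 arrays, each gene (row) minus its own mean over the arrays, with arrays (columns) in groups and colours that end at 2 on either side. Crosses mark arrays on which the probe was not well above background and grey a missing value. *Itga6* and *Lama4* separate the pTV arrays from all others, and *Lama2* the KTR arrays.

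Wild type against pTV at 3 h asks which of these genes differ with p65 in TNFα-treated cells. The laminin-binding chains *Itga6* and *Itga3* and the RGD-binding chain *Itga8* were lower with p65, *Itga6* most of all, and the laminin chains *Lama3* and *Lama4* were higher while *Lama2* was lower. In this comparison 7 of the 27 tested genes were called, 2 higher and 5 lower, where 8.84% of all 14871 tested genes were called higher and 6.93% lower. Past the ratio limits of the study, above 1.8 or below its inverse, were 4 of the 27 genes, against 6.95% of all genes. For its heat maps the study asked for more than 2-fold in wild type over pTV, a limit not used here. The median log2 fold change was -0.20 over the 17 integrins and 0.19 over the 7 laminins, beside -0.02 over all tested genes.

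Among the laminin-binding chains, *Itga6* encodes the α6 chain of α6β1 and α6β4, a receptor for most laminins. Its log2 signal was 0.56, 0.45 and 0.44 on the pTV arrays and -1.04, -1.08 and -1.02 in wild type at 3 h. KTR arrays gave -0.99, -0.75 and -1.10 and K314/315R arrays -0.79 and -1.05. All arrays of cells with p65 thus lay below all pTV arrays, and the wild type arrays at 0 h, with -1.28, -1.38 and -1.19, did so too. The log2 fold change was -1.53 ± 0.11 (SE), a ratio of 0.346 (adjusted p = 1.3e-06), and -1.60, -1.53 and -1.46 within slides 1, 2 and 3. A second probe of *Itga6* gave -1.73 (adjusted p = 1.2e-05).

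*Itga3* encodes the α3 chain, a receptor for laminins with an α3 or α5 chain. It read 0.97, 1.51 and 1.52 on the pTV arrays against 0.39, 0.86 and 0.70 in wild type at 3 h. The groups did not overlap, but the lowest pTV array lay close to the highest wild type array. The log2 fold change was -0.68 ± 0.18 (SE, adjusted p = 0.024). It was not called without wild type replicate 1 or 3 or pTV replicate 2 or 3, where adjusted p was 0.057 to 0.11. One other probe of *Itga3* gave -0.65 (adjusted p = 0.0011) and another -0.09 (adjusted p = 0.89). *Itga7*, the laminin receptor of muscle, went the other way with 0.37 ± 0.12 (SE), which was not called (adjusted p = 0.054) and was called with the slide as a block (adjusted p = 0.015).

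Of the RGD-binding chains, *Itga8*, whose α8β1 receptor binds nephronectin and fibronectin and whose promoter is printed above, was lower with p65. The pTV arrays read -1.01, -1.17 and -0.80 and the wild type arrays at 3 h -1.96, -2.16 and -1.74. There was no overlap, and the difference was nearly the same on each slide, -0.95, -0.99 and -0.94. The log2 fold change was -0.96 ± 0.17 (SE, adjusted p = 0.0020), and a second probe gave -1.02 (adjusted p = 0.012). *Itgav* (0.39), *Itga5* (-0.26) and *Itga2b* (-0.45) were not called. The β chains were closer together: *Itgb1*, the partner of most α chains here, was lower by -0.33 ± 0.08 (SE, adjusted p = 0.017), and the other 6 tested β chains gave -0.27 to 0.39 with no call. *Itgb1* was not called without wild type replicate 1 or 2 or pTV replicate 1 (adjusted p 0.056 to 0.064). Among the collagen receptors, *Itga11* gave 0.57 and *Itga1* -0.23 with no call.

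Laminin α chains moved in both directions. *Lama4*, the α4 chain of vessel and fibroblast laminins, read -0.48, -0.87 and -0.32 in pTV against 0.97, 0.49 and 0.61 in wild type at 3 h. Every array of cells with p65 was above every pTV array, the 0 h arrays included, with 0.54, 0.40 and 0.50. The log2 fold change was 1.25 ± 0.20 (SE), a ratio of 2.37 (adjusted p = 0.0011). The other 2 tested probes of *Lama4* gave 1.29 (adjusted p = 0.038) and 1.25 (adjusted p = 3.2e-04).

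*Lama3*, the α3 chain of epithelial laminin, was not well above background on any pTV array, where it measured -5.25, -5.68 and -4.92. In wild type at 3 h it read -3.44, -3.67 and -3.57 on 3 arrays well above background. It was therefore higher with p65 by at least 2.27-fold, with a mean of -3.56 ± 0.12 (SD, n = 3) against -5.28 ± 0.38 (SD, n = 3) and an adjusted p of 1.0e-04. The bound sets each pTV array at the lowest signal that counted as well above background on it, or at the probe's own signal where that was higher. *Lama2*, the α2 chain of muscle and nerve basement membranes, was lower by -0.52 ± 0.10 (SE, adjusted p = 0.0043). *Lama5*, *Lamb2* and *Lamc1* gave 0.12 to 0.19 with no call. Laminin β1, outside the name rule, was lower by -0.59 ± 0.10 (SE, adjusted p = 0.0018). The 3 binding proteins gave 0.02 to 0.12 with no call.

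With the slide as a block, 13 of the 27 genes were called where 24.7% of all genes were. The 6 added were *Itga11* (0.57, adjusted p = 0.0042), *Itga2b* (-0.45, 0.011), *Itga7*, *Itgav* (0.39, 0.020), *Itgb5* (0.39, 0.0085) and *Itgb7* (0.38, 0.029), each named with its log2 fold change and its adjusted p in that fit.

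**Figure D2:**
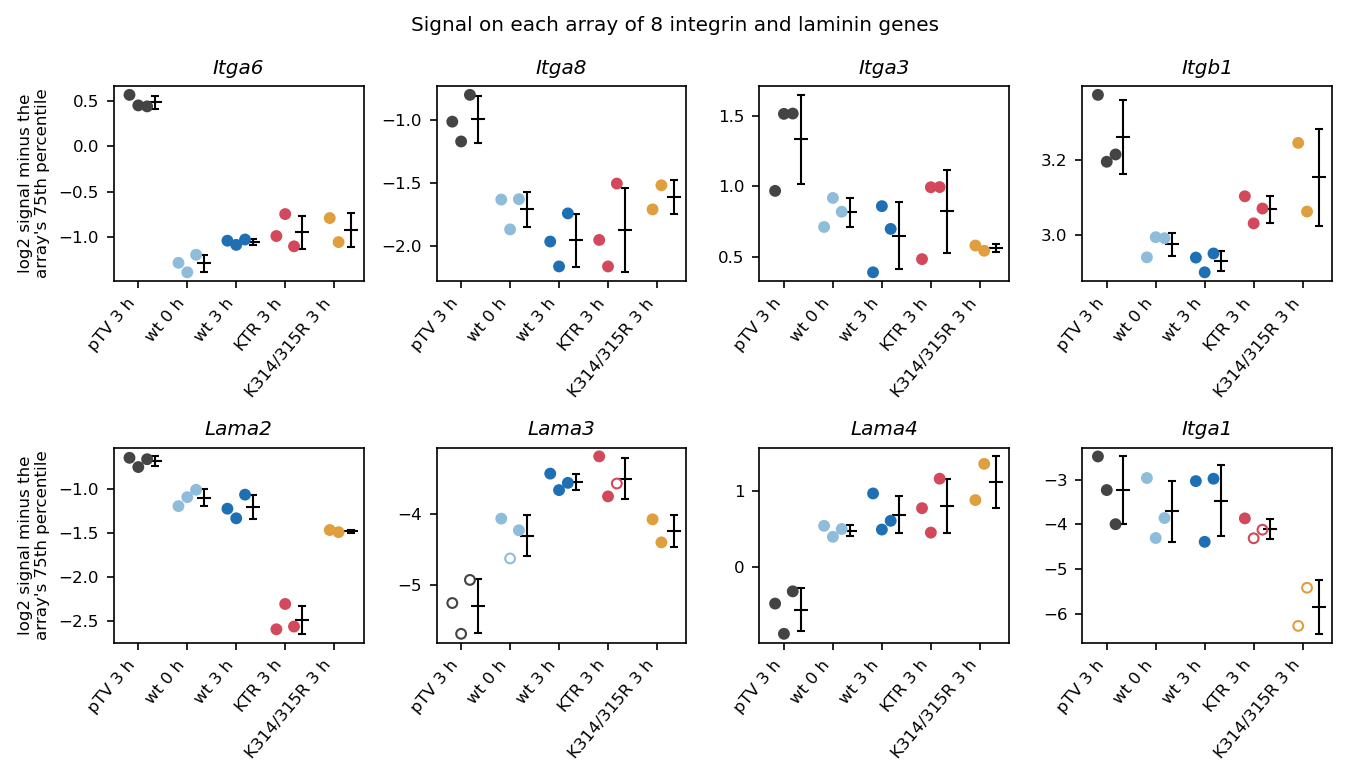
Log2 signal minus the array's 75th percentile (vertical axis) of 8 genes on each array, by group (horizontal axis). Points are arrays, open where the probe was not well above background, and the black marks beside them are the mean and SD of the group. *Itga6* lies between 0.44 and 0.56 in pTV and at -0.75 or lower elsewhere, and *Lama2* is lowest in KTR.

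Both mutants were also set against pTV, to see which of the differences are found with p65 that lacks the lysines. All 3 comparisons use the same 3 pTV arrays, so their values are given side by side and no count of shared genes is read as a result. In KTR over pTV 11 of the 27 genes were called, 8 higher and 3 lower, where 10.5% of all genes were called higher and 5.66% lower. In K314/315R over pTV 11 were called, 6 higher and 5 lower, where 13.8% of all genes were called higher and 12.2% lower. Past the ratio limits were 6 genes in KTR and 5 in K314/315R, against 6.66% and 11.5% of all genes. The median over the 27 genes was 0.09 in KTR and 0.16 in K314/315R, beside 0.04 and 0.01 over all genes.

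*Itga6* was lower by -1.43 ± 0.11 (SE, adjusted p = 3.3e-06) in KTR and by -1.40 ± 0.12 (SE, adjusted p = 8.9e-06) in K314/315R. *Itga8* was lower by -0.88 ± 0.17 (SE, adjusted p = 0.0040) in KTR, whose arrays read -1.95, -2.16 and -1.50, and by -0.62 ± 0.19 (SE, adjusted p = 0.032) in K314/315R, whose arrays read -1.71 and -1.52. The K314/315R call was lost without either of its arrays or pTV replicate 1 or 3 (adjusted p 0.058 to 0.17). The second *Itga8* probe gave -0.25 (adjusted p = 0.54) in K314/315R. *Itga3* was lower by -0.77 ± 0.20 (SE, adjusted p = 0.016) in K314/315R, whose arrays read 0.58 and 0.54, a call lost without either of these arrays or pTV replicate 2 (adjusted p 0.057 to 0.084). In KTR it gave -0.51 ± 0.18 (SE, adjusted p = 0.085), with arrays at 0.48, 0.99 and 0.99 that overlapped pTV, and was called with the slide as a block (adjusted p = 0.012).

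The collagen receptor chain *Itga11*, which pairs with β1 in fibroblasts, was higher in KTR. Its signal was 2.42, 1.63 and 2.10 in pTV, 3.20, 2.85 and 3.37 in KTR and 3.35 on the 1 K314/315R array with a value. All of these mutant arrays lay above all pTV arrays. KTR was higher by 1.09 ± 0.23 (SE, adjusted p = 0.0080), with 0.78, 1.22 and 1.26 within slides 1 to 3. The 1 array of K314/315R differed from pTV by 1.30 ± 0.32 (SE, adjusted p = 0.014), a call that is among the 11 and assumes that this lone array varies like the other groups. Wild type at 3 h, with 2.91, 2.28 and 2.67, overlapped pTV.

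*Itgb5* and *Itgb7* were also higher in both mutants and *Itgav* in KTR, by smaller amounts. *Itgb5*, which pairs with αV on vitronectin, was higher by 0.49 (adjusted p = 0.021) in KTR and by 0.63 (adjusted p = 0.0068) in K314/315R. *Itgb7*, known from lymphocytes, was higher by 0.79 (adjusted p = 0.032) and 0.78 (adjusted p = 0.036). *Itgav* was higher by 0.63 (adjusted p = 0.034) in KTR and gave 0.59 (adjusted p = 0.050) in K314/315R, not called. The K314/315R call of *Itgb5* was lost without K314/315R replicate 2 (adjusted p = 0.054), and that of *Itgb7* without either K314/315R array or pTV replicate 1 or 3 (adjusted p 0.068 to 0.18). The KTR calls were lost without KTR replicate 1 or pTV replicate 2 or 3 for *Itgb5* (adjusted p 0.073 to 0.085), without KTR replicate 1 or 2 or pTV replicate 1 or 3 for *Itgb7* (0.070 to 0.11), and for *Itgav* without KTR replicate 2 or 3, pTV replicate 1 or 2 or wild type 0 h replicate 3 (0.051 to 0.11). *Itgb1* gave -0.19 and -0.11 with no call.

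*Lama4* was higher by 1.35 ± 0.20 (SE, adjusted p = 7.0e-04) in KTR, whose arrays read 0.78, 0.45 and 1.16, and by 1.68 ± 0.23 (SE, adjusted p = 2.8e-04) in K314/315R, whose arrays read 0.88 and 1.36. *Lama3* was at least 2.35-fold higher in KTR (adjusted p = 9.9e-05), where 2 of 3 arrays were well above background and the arrays read -3.20, -3.76 and -3.58. In K314/315R, with -4.08 and -4.40, it was at least 1.42-fold higher (adjusted p = 0.0064), a call lost without K314/315R replicate 1 (adjusted p = 0.060). Both K314/315R arrays lay between those of pTV and those of wild type at 3 h. *Lamb2*, the β2 chain of muscle and kidney laminins, was higher by 0.45 (adjusted p = 0.012) in K314/315R, a call lost without K314/315R replicate 2 (adjusted p = 0.11). Laminin β1 was lower by -0.41 (adjusted p = 0.018) and -0.59 (adjusted p = 0.0030).

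*Itgb1bp1*, whose protein binds the β1 tail, was higher by 0.33 (adjusted p = 0.038) in KTR over pTV, and it was not called in 9 of 14 fits that left out 1 array (adjusted p 0.051 to 0.12). The tested genes called in neither mutant comparison were 13 of 27. They were *Itga2b*, *Itga5*, *Itga7*, *Itgal*, *Itgb1*, *Itgb2*, *Itgb3*, *Itgb4*, *Itgb8*, *Lama5*, *Lamc1*, *Itgb3bp* and *Itgb4bp*, with log2 fold changes of -0.37 to 0.33. Of these, *Itgb8* (-0.32, adjusted p = 0.047) and *Lamc1* (0.27, adjusted p = 0.028) were called in KTR over pTV with the slide as a block. For *Itgb8* another probe, well above background on 12 arrays, gave -1.83 (adjusted p = 0.0033) in K314/315R over pTV. There the probe used gave -0.37 (adjusted p = 0.064) and another -0.59 (adjusted p = 0.11). A second probe of *Itgb3* gave -0.65 (adjusted p = 0.049) in K314/315R over pTV, where the probe used gave -0.34 (adjusted p = 0.33).

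**Figure D3:**
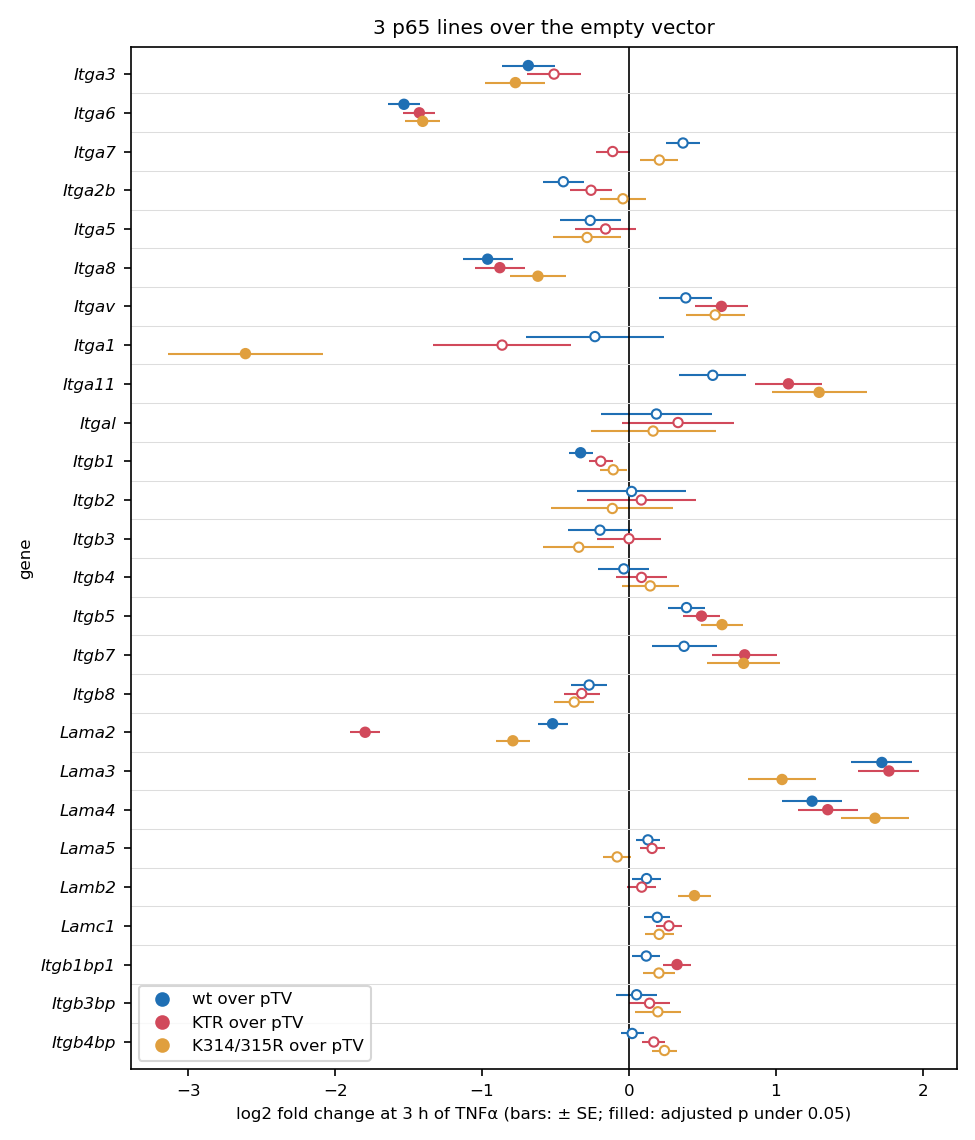
Log2 fold change over pTV at 3 h of TNFα (horizontal axis) of 26 of the 27 tested genes (vertical axis) for wild type, KTR and K314/315R. Points are estimates and bars their SE, and filled points have an adjusted p under 0.05. *Itga6* is near -1.5 and *Lama4* above 1 in all 3, and *Lama2* is lowest in KTR at -1.80.

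Mutant against wild type asks which genes differ between cells with and without the lysine changes in p65. Each version of p65 was in pooled cells of its own. Effects of the lysines were therefore not separated from differences between pools or in the amount of p65. Differences between pools also bear on the comparisons with pTV. *Lama2* was the one gene of the 27 called in KTR over wild type, and *Itga1* the one in K314/315R over wild type. In KTR 0.0807% of all tested genes were called higher, 0.235% lower and 0.222% past the ratio limits, and 1 of 27 here passed the limits. In K314/315R the shares were 0.518% higher, 1.57% lower and 1.18% past the limits, and again 1 of 27. The median of the 27 genes was 0.10 in KTR and 0.09 in K314/315R, beside 0.06 and 0.03 over all genes. Outside the name rule, *Itgbl1* read 0.01, 0.10 and 0.37 in wild type at 3 h and -0.84, -0.73 and -0.24 in KTR. It read -0.55 and -0.28 in K314/315R and 0.33, 0.54 and 0.41 in pTV. No adjusted p is given for it here.

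*Lama2* read -1.23, -1.34 and -1.07 in wild type at 3 h, -2.59, -2.31 and -2.56 in KTR and -1.47 and -1.49 in K314/315R. The pTV arrays gave -0.65, -0.76 and -0.67 and the 0 h arrays -1.20, -1.10 and -1.01. The levels thus ran from pTV, highest, through wild type and K314/315R to KTR, lowest, and the arrays of KTR lay apart from all others. KTR was lower than wild type by -1.28 ± 0.10 (SE), a ratio of 0.413 (adjusted p = 2.9e-04), with -1.37, -0.97 and -1.49 within slides 1 to 3. It was lower than pTV by -1.80 ± 0.10 (SE, adjusted p = 2.8e-07). A second probe, well above background on 13 arrays, gave -1.33 for KTR over wild type (adjusted p = 0.11).

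K314/315R differed from wild type in *Lama2* by -0.27 ± 0.11 (SE, adjusted p = 0.25), which was not called, with no overlap of the arrays, and was lower than pTV by -0.79 ± 0.11 (SE, adjusted p = 4.4e-04). A comparison of the mutants with each other, added after these values were seen, gave -1.01 ± 0.11 (SE, adjusted p = 0.0031) for KTR over K314/315R. *Lama2* was the 1 gene of 27 called there, also past the ratio limits, where 3.52% of all genes were called higher, 1.6% lower and 2.43% past the limits. With only the arrays of both mutants in the fit it was not called, and with only KTR and wild type arrays the adjusted p of KTR over wild type was 0.052.

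*Itga1*, the α1 chain of a receptor for collagens, was well above background on no K314/315R array, where it measured -6.27 and -5.42. Wild type arrays read -3.03, -4.39 and -2.98 at 3 h and -2.96, -4.30 and -3.86 at 0 h. The pTV arrays read -2.48, -3.23 and -3.99 and the KTR arrays -3.86, -4.31 and -4.12, of which 1 KTR array was well above background and all 3 pTV arrays were. Both K314/315R arrays were below all other arrays, and the other groups overlapped each other. K314/315R was at least 2.82-fold lower than wild type (means of -5.84 ± 0.60, SD, n = 2, and -3.47 ± 0.80, SD, n = 3, and adjusted p = 0.040) and at least 3.31-fold lower than pTV (adjusted p = 0.0036). The call against wild type was lost in 9 of 14 fits that left out 1 array, among them each without a wild type 3 h or K314/315R array (adjusted p 0.051 to 0.18), and the call against pTV in none. The other 3 probes of *Itga1* were well above background on no array.

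In KTR over K314/315R *Itga1* was not called (adjusted p = 0.077), and 1 of the 5 arrays measured it well above background. *Lama3* gave 0.73 (adjusted p = 0.094) there. With the replicate block, *Itga7* was lower in KTR than in wild type (-0.48, adjusted p = 0.042), where the fit without it gave the same value and an adjusted p of 0.16. A second *Itga7* probe gave -0.85 (adjusted p = 0.20) there without the block. In KTR over K314/315R that probe gave -0.96 (adjusted p = 0.047), where the probe used gave -0.32 (adjusted p = 0.18).

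TNFα over 3 h in wild type cells moved single chains by small amounts, except for *Itga11*. In this comparison 5 of the 27 genes were called, 3 higher and 2 lower, where 2.8% of all genes were called higher and 2.25% lower. Past the ratio limits was 1 gene, *Itga11*, against 1.74% of all genes. Among the called genes that rose were *Lamc1* and *Itgb4bp*. The median over the laminins was 0.21 and over the integrins -0.05, the same as the -0.05 of all genes. Untreated pTV cells were not analysed here, so these values do not separate p65 from other effects of TNFα.

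*Itga11* fell from 3.82, 3.33 and 3.62 at 0 h to 2.91, 2.28 and 2.67 at 3 h. The arrays did not overlap, and the differences within slides were -0.91, -1.05 and -0.95. The log2 fold change was -0.97 ± 0.23 (SE, adjusted p = 0.037). *Lamb2* fell from 2.72, 2.54 and 2.41 to 2.29, 2.12 and 2.05, a log2 fold change of -0.40 ± 0.10 (SE, adjusted p = 0.042). It was lower at 3 h on every slide, by -0.43, -0.42 and -0.36.

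*Lamc1*, the γ1 chain found in most laminins, rose from 3.18, 3.21 and 3.14 to 3.66, 3.45 and 3.54, or by 0.37 ± 0.09 (SE, adjusted p = 0.034). The arrays did not overlap, and the differences within slides were 0.47, 0.24 and 0.40. *Itgb4bp*, a translation initiation factor first named for binding the β4 tail, rose from 4.05, 3.96 and 4.0 to 4.43, 4.33 and 4.38, by 0.38 ± 0.08 (SE, adjusted p = 0.017) and by 0.38 on each slide.

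All 5 calls depended on single arrays. Leaving out 1 array at a time gave 0 to 5 called genes: 0 without replicate 3 of wild type at 3 h or at 0 h, 1 without replicate 2 of wild type at 3 h or replicate 1 or 2 at 0 h, 2 without replicate 1 at 3 h, and 3 without KTR replicate 1 or pTV replicate 3. With the slide as a block the count was 10, where 11.3% of all genes were called. Added were *Lama3* (0.75, adjusted p = 0.0061), *Itga5* (0.59, adjusted p = 0.0083), *Itgav* (0.49, adjusted p = 0.014), *Itga2b* (-0.47, adjusted p = 0.019) and *Itgb5* (-0.38, adjusted p = 0.020), each with its log2 fold change. *Itga5*, the α5 chain of the classical fibronectin receptor, read 0.27, 0.32 and 0.50 at 0 h and 0.79, 0.88 and 1.18 at 3 h. A second *Itgav* probe gave 0.62 (adjusted p = 0.0022) without the block, where the probe used gave 0.49 (adjusted p = 0.17).

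**Figure D4:**
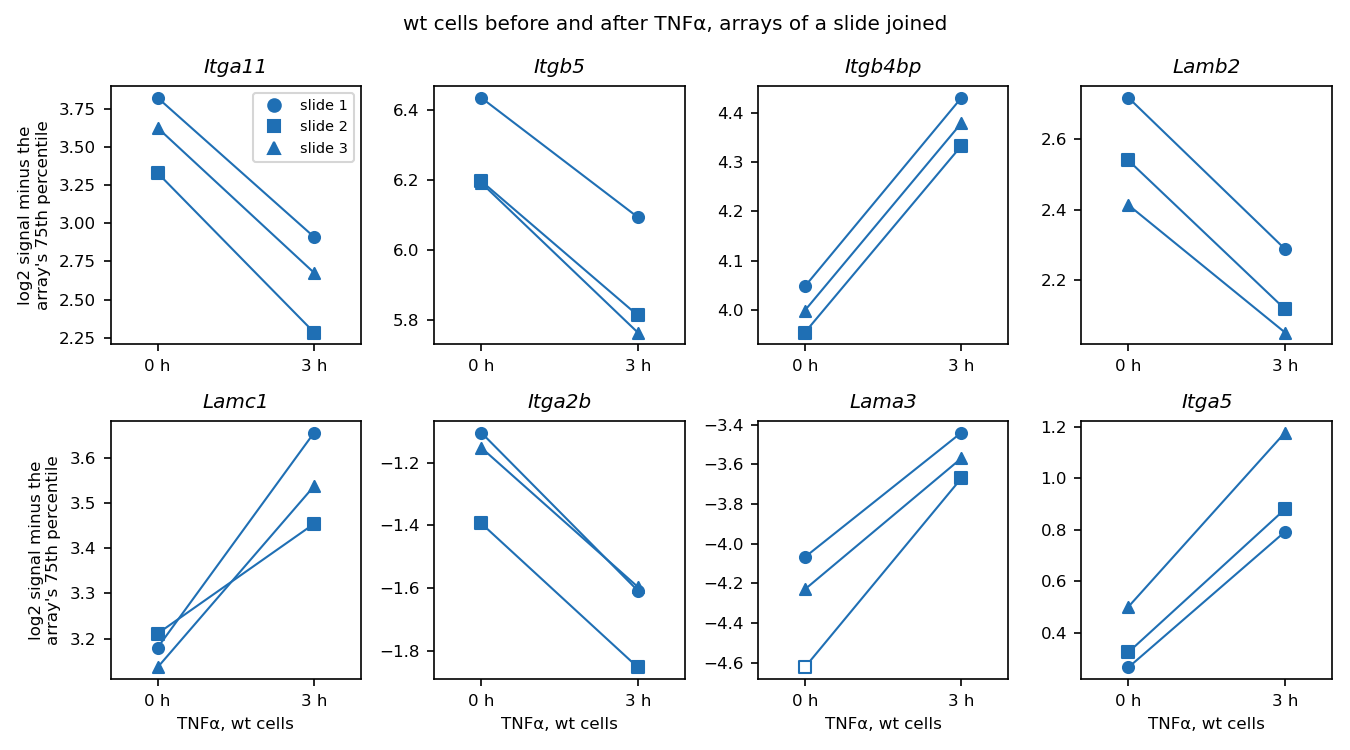
Log2 signal minus the array's 75th percentile (vertical axis) of 8 genes in wild type cells at 0 h and 3 h of TNFα (horizontal axis), with the arrays of a slide joined by a line and marked by slide. An open symbol was not well above background. On all 3 slides *Itga11*, *Itgb5*, *Itga2b* and *Lamb2* fall and *Itgb4bp*, *Lamc1*, *Lama3* and *Itga5* rise.

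Genes that work with these chains were counted from 3 lists. Of all tested genes, 8.84% were called higher and 6.93% lower in wild type over pTV. The shares were 10.5% and 5.66% in KTR over pTV and 13.8% and 12.2% in K314/315R over pTV. With TNFα they were 2.8% and 2.25%. The list counts were not tested against these shares. Of 29 focal adhesion proteins that bind integrins or signal from them, 25 were tested. In wild type over pTV 2 were higher, the talin *Tln2* (0.30) and caveolin *Cav1* (0.30), and 1 lower, zyxin *Zyx* (-0.54). KTR over pTV had 3 higher and 2 lower, with *Tln2* at 0.56 and *Zyx* at -0.50, and K314/315R over pTV 3 higher and 2 lower, with *Lims1*, a partner of integrin-linked kinase, at -0.93. With TNFα 1 was higher, the scaffold *Nedd9* (0.41). In KTR and in K314/315R over wild type 0 were called, with medians of 0.04 each beside 0.06 and 0.03 over all genes.

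Of 20 matrix ligands of integrins and partners of laminins in basement membranes, 15 were tested. In wild type over pTV 2 were higher and 6 lower, with a median of -0.28 beside -0.02 over all genes. The lower ones were led by *Ctgf* (-2.21 ± 0.18, SE; adjusted p = 3.4e-06), a secreted integrin ligand, and *Thbs2* (-1.31), a thrombospondin. The higher ones were netrin *Ntn1* (1.77) and *Nid1* (1.37 ± 0.14, SE; adjusted p = 2.3e-05), which encodes nidogen, the linker of laminin to collagen IV. KTR over pTV had 2 higher and 6 lower, and K314/315R over pTV 2 higher and 4 lower. *Ctgf* and *Cyr61* rose with TNFα, by 0.81 and 0.58. In K314/315R over wild type 1 was called, *Thbs2*, higher by 0.97 (adjusted p = 0.0497), and in KTR over wild type 0.

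Of 15 other laminin receptors and membrane partners of integrins all were tested. In wild type over pTV 3 were higher, the syndecan *Sdc4* (0.92), the integrin-associated protein *Cd47* (0.86) and the sarcoglycan *Sgcb* (0.51), and 1 lower, the tetraspanin *Cd9* (-0.37). The median was 0.13 beside -0.02 over all genes. KTR over pTV had 3 higher and 0 lower, and K314/315R over pTV 5 higher and 1 lower, the laminin-receptor partner *Cd151* (-0.50). *Sdc4*, a fibronectin co-receptor, rose with TNFα by 0.95 ± 0.13 (SE, adjusted p = 0.0016), the 1 call of this list there. In KTR and K314/315R over wild type 0 of the 15 were called.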

How the data were processed

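Total RNA of 14 cultures was labeled with Cy3 and hybridised to 14 one-colour arrays of the mouse genome. The files deposited are Agilent Feature Extraction output per array (version 9.1.1.1 on the first 3 slides, 9.1.3.1 on slide 4). The intensity of a spot is there corrected by the software for background and spatial trend, with no scaling across arrays. A matrix of normalized intensities by the authors served only as an alternative. The analysis with Rosetta Resolver, which the study names, was not repeated.

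Spots with either of 2 outlier flags were left out, spots of a probe were averaged, and log2 signals minus each array's 75th percentile were fitted with limma 3.58.1 for all 14 arrays at once, so that groups share the estimate of the spread (R 4.3.3, with data.table for reading, 1.17.8). All tests are two-sided with Benjamini-Hochberg adjustment over 22172 tested of 41174 probes. Counts over genes take the brightest probe of each name. The number of arrays limits what can be told apart. Promoters and figures used Python 3.11.15, pandas 2.3.3 and matplotlib 3.10.9. Calls were also run on simulated data with known changes. No outcome of that run is given here, so it does not check the calls in these data.

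The members and gene lists were chosen with earlier results of these data known, and the comparison of the 2 mutants was added after the values were seen. Up to 5 called genes per comparison with the largest change get values on every array, other called genes their change and adjusted p, and up to 4 called genes of a list are named. One tested member is counted but not reported here.

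To check for pairing, deviations from the group means were correlated between arrays. On slides 1 to 3, where a replicate number is a slide, r was 0.358 to 0.728 for the 18 pairs with one number. It was -0.603 to 0.192 for the 36 others. Pairing was taken as shown for these arrays, but the main fit leaves it out. Only the fits with a block use the pairing, so all other SE, adjusted p and calls ignore it. For K314/315R the 8 same-number pairs had -0.134 to 0.471, so a pairing was not shown there. The slide as a block and the replicate block are the same fit. It blocks on the replicate number, which is the slide on slides 1 to 3 but not for K314/315R.

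The alternatives were normexp background correction (offset 50, without spots flagged as outliers or for uneven background), quantile normalization, the deposited normalized table, both filters on dim probes, the block, slide as a random block, the arrays of the compared groups alone, the mean over probes, unadjusted p, the ratio limits, and each array left out in turn. Of the 40 genes, 31 matched RefSeq (GRCm38.p6) by accession and the others by symbol.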

Additional observations from a re-analysis of the deposited data

How the results depend on the processing

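Single genes were refitted under all alternatives but the ratio limits and the unadjusted p, which were run for counts only. Of 37 called values, 15 stayed called in all of these refits and 22 lost the call in at least 1, and none changed sign. Of 25 values that were not called, 6 stayed so in all of them. The replicate block ties the K314/315R arrays of slide 4 to the other slides by replicate number. That pairing was not shown, so its counts and added calls for K314/315R are not read as results. The counts of called genes moved as follows. Wild type over pTV, 7 genes, had 13 with the replicate block, 12 with slide as a random block, 14 at an unadjusted p and 4 past the ratio limits. TNFα, 5 genes, had 10 with either block, 12 at an unadjusted p, 3 with normexp, 1 past the ratio limits and 0 with no filter on dim probes. KTR over wild type, 1 gene, had 2 with either block (1.3% of all genes with the replicate block), 4 at an unadjusted p, 5 with no filter and 0 with only the arrays of both groups. K314/315R over wild type, 1 gene, had 4 with the replicate block (10.7% of all genes; added were *Itga2b*, adjusted p = 0.035, *Itga8*, 0.047, and *Lama3*, 0.027), 9 at an unadjusted p and 0 with the random block, normexp, quantile normalization, either other filter on dim probes or only the arrays of both groups. KTR over pTV, 11 genes, had 14 with the replicate block (26.1% of all genes), 6 with only the arrays of both groups and 6 past the ratio limits. K314/315R over pTV, 11 genes, had 5 past the ratio limits and 13 with the replicate block (40.7% of all genes). KTR over K314/315R, 1 gene, had 4 with the replicate block (15.4% of all genes; added were *Itga1*, 0.041, *Itga7*, 0.040, and *Lama3*, 0.016), 2 with the mean over probes, 3 with no filter, 6 at an unadjusted p and 0 with only the arrays of both groups. The cause of these shifts was not tested. At an unadjusted p, far more of all tested genes passed too, in every comparison. The counts given here for that limit were not set against the share of all genes, so they are not read as an excess. Leaving out each array in turn gave 5 to 9 called genes for wild type over pTV, 0 to 5 for TNFα, 0 to 1 for K314/315R over wild type, 7 to 11 for KTR over pTV and 7 to 12 for K314/315R over pTV, and 1 in every fit for KTR over wild type and for KTR over K314/315R. Values close to the detection limit, *Itga1* and *Lama3* among them, are limited by the signal over background.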
